A study of Arabidopsis thaliana with 60 samples.

Results

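The comparison set the 3 plants numbered 1, one of each condition, against the 12 plants numbered 2 to 5, 15 plants in all, with the condition held as a block. The plants were picked by replicate number alone, but the contrast itself was chosen from earlier results of the same normalized counts and rlog values, in which the expression values set the plants numbered 1 apart from the rest. The values below therefore describe this contrast, no p-value for a gene is given, and nothing is supported by them. The plants were Arabidopsis thaliana individuals of 3 origins: biparental diploids (BD) from a 2n mother and a 2n pollen donor, biparental triploids (BT) from a 2n mother and a 4n pollen donor, and triparental triploids (TT) from pollinating a mother with 2 donors. Every mother carried ein3-1, a mutation of the ethylene transcription factor EIN3. Labels name the donor of the BD and BT crosses as pRPS5a::mGAL4-VP16/-; pUAS::BAR-YFP/-, in which the RPS5a promoter of dividing cells drives an activator of a gene for herbicide resistance and YFP, and all seedlings had survived glufosinate at 25 mg/l. They grew in 16 h of light at 23 °C, went to soil on day 9, had ploidy and YFP checked on day 17, and gave their aerial tissue on day 18 after sowing. A replicate was 1 plant, sequenced as 4 technical replicates that the deposited tables combine, and neither the labels nor the methods say what the number of a plant stands for (harvest order, tray position or another thing).

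Plant transcripts follow the day. Some factors of the circadian clock peak after dawn, such as CCA1 and PRR9, and others towards dusk, such as TOC1 and FKF1. CCA1 and TOC1 repress each other, and the clock passes time of day on to photosynthesis, growth and flowering genes. The shoot tip of a young rosette also changes with age, when SPL factors and MADS factors such as FUL and AP1 turn leaf primordia into floral primordia.

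Depth did not separate the plants numbered 1. They held 26948338, 22254152 and 26458900 recovered reads in BD, BT and TT, inside the 19534646 to 30756482 of the other 12 plants (exact permutation test within conditions, two-sided, p = 0.936). Of 6 library measures tested in this way the smallest p was 0.024, for the share of mitochondrial reads, with a Benjamini-Hochberg adjusted p of 0.144 in the exact permutation test and a smallest possible p of 0.008. All 6 were computed from the same deposited values from which the contrast was chosen. These p-values are therefore descriptions and not tests of a contrast fixed in advance. The 10 most abundant genes took 9.15% to 10.08% of their reads and 7.13% to 13.7% of the others. The aerial label was borne out by its markers: LHB1B1, an antenna protein of leaves, had 41458 to 99232 normalized counts, and of 9 root markers only CASP1 was in the tables, at no more than 8.58. EIN3 had 1560.0, 1733 and 1534 normalized counts in the plants numbered 1 and 1225 to 1939 (median 1612) in the others, and since all crosses used the same mother line its level does not check a label. In 4 of the other plants a chromosome region stood above the rest of the genome (BD replicate 4 and BT replicates 2, 3 and 5), and BD replicate 4 and BT replicate 5 also stood farthest from the others on the first principal component, so results are given without them where that matters.

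A gene was called set apart when plant 1 lay above the 4 other plants of its condition in BD, BT and TT alike, or below them in all 3. Among all genes 433 were set apart with plant 1 higher, 2.02% of those tested, and 462 with plant 1 lower, 2.15%, together 895 or 4.17%. On rlog values, the authors' variance-stabilised log2 scale, 437 were higher and 486 lower, and 894 genes were shared with the normalized counts. On TPM values, which lift the median of all genes by 0.17 (log2) in this contrast, 1262 were higher and 159 lower, and after centring each plant on its median 411 and 519. The limma fit of log2(normalized count + 1) called 0 genes at a Benjamini-Yekutieli adjusted p under 0.05 (0%), 4 at a Benjamini-Hochberg adjusted p under 0.05 (0.0186%) and 1904 at an unadjusted p under 0.05 (8.88%), and edgeR called 0 genes on the recovered reads, with 2040 at an unadjusted p under 0.05. DESeq2 called 41 on the same reads after Benjamini-Yekutieli adjustment, and limma with array weights 127. After Benjamini-Hochberg adjustment these were 130 and 2535. In the test for a contrast that depends on the condition limma called 0 genes after either adjustment and 207 at an unadjusted p under 0.05. Counted against the mean of the others instead of each plant, 21.6% of all genes were higher in plant 1 in all 3 conditions and 22.9% lower, and 50.8% had a positive difference averaged over conditions. Differences below are plant 1 minus the mean of plants 2 to 5, averaged over the 3 conditions, on that log2 scale, which understates the change of genes with low counts, and SE is the standard error of the limma fit. Normalized counts are not per length, so levels are compared between plants and not between genes. Medians given for single plants are differences from the mean of plants 2 to 5 of the condition. For plants 2 to 5 that mean includes the plant itself and for plant 1 it does not, so the range of the others is narrowed by construction.

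**Figure D1:**
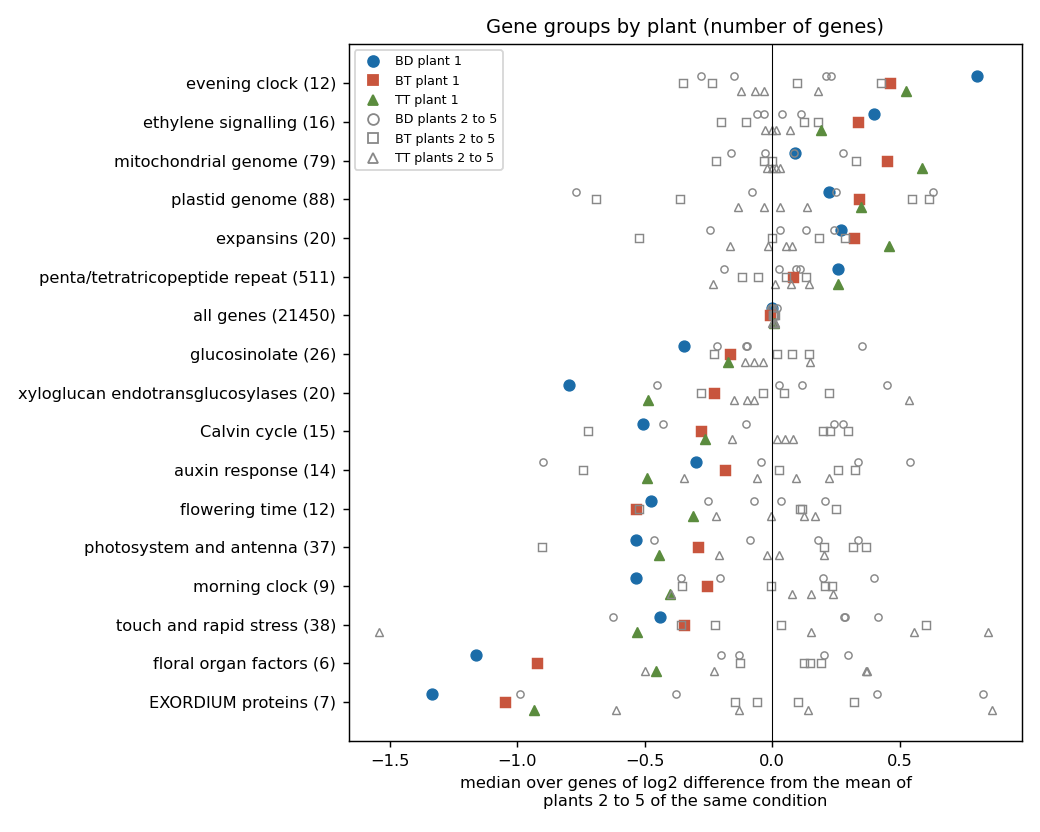
Median over the genes of a group of each plant's log2 difference from the mean of plants 2 to 5 of its condition, with filled symbols for plant 1 and open symbols for the others, and the number of genes in brackets. Plants 2 to 5 are part of that mean and lie closer to it by construction. The evening clock lay at 0.80, 0.46 and 0.52 in plant 1 of BD, BT and TT and the photosystem and antenna genes at -0.54, -0.29 and -0.45, while all genes lay near 0.

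The evening part of the clock was higher in the plants numbered 1 by its median. Of its 12 listed genes 9 had a higher level in plant 1 than the mean of the others in all 3 conditions, beside 21.6% of all genes. With all plants 2 were set apart higher, FKF1 and ELF3, and 1 lower, CHE, beside 2.02% and 2.15%, and the median difference was 0.55 against 0.01 over all genes. The list median was 0.80, 0.46 and 0.52 in the plants numbered 1 of BD, BT and TT and -0.35 to 0.43 in the others. FKF1, a blue-light receptor F-box protein that acts at the end of the day, had 1943, 1680.2 and 1357 normalized counts in plant 1 of BD, BT and TT and 208 to 1348 (median 429) in the other 12 plants, a difference of 1.66 (SE 0.45). No other plant reached the lowest plant numbered 1, and the others themselves were spread: plants 1 to 5 of BD had 1943, 329.5, 322, 1147 and 882, those of BT 1680.2, 489, 319, 812 and 1348 and those of TT 1357, 369, 351, 208 and 769. Plants 2 and 3 were thus low in every condition, plant 5 lay between them and plant 1, and plant 4 did so in BD and BT but was the lowest of all in TT. ELF3, a subunit of the evening complex that represses day genes, had 1308, 1055 and 997 against 595 to 947 (median 767), a difference of 0.53 (SE 0.14) with no overlap. TOC1, the pseudo-response regulator that represses CCA1, had 2782, 2236 and 1909 against 871 to 2869 (median 1079.6), and BT replicate 5 stood above every plant numbered 1. The same plant was the highest for PRR5, a relative of TOC1, which had 1781, 1728 and 1643 in the plants numbered 1 against 735 to 1914 (median 1050.4). COR27, a cold-regulated clock component counted with the clock outputs and not with these 12, followed it with 502, 324 and 259 against 31.4 to 798 (median 63.2). TOC1, PRR5 and COR27 were chosen after their values were seen. Without BD replicate 4 and BT replicate 5 the count of 2 became 6 of 12 evening genes set apart higher, with 1 lower, beside 4.66% and 6.57% of all genes. BT replicate 5 had stood above plant 1 in TOC1 and PRR5, and leaving plants out raises such counts by construction.

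The morning part of the clock was lower by its median over conditions. Of 9 listed genes 6 were lower in plant 1 in all 3 conditions, beside 22.9% of all genes, 2 were set apart lower, beside 2.15%, and the median difference was -0.45. The list median was -0.53, -0.26 and -0.40 in plant 1 of BD, BT and TT and -0.40 to 0.40 in the others. BT replicate 4, at -0.35, lay below BT plant 1, and TT replicate 5 lay level with TT plant 1. CCA1, the dawn MYB factor, had 140.1, 179 and 259 normalized counts in the plants numbered 1 and 214 to 644 (median 534) in the others, a difference of -1.17 (SE 0.34). Within each condition plant 1 was the lowest, but TT plant 1 stood above BD replicates 4 and 5. RVE4, a MYB factor of the same family that activates evening genes, had 474, 529 and 517 against 496 to 904 (median 794), with a difference of -0.53 (SE 0.17). PRR9, which is expressed soon after dawn, had 169, 165 and 257 against 213 to 674 (median 374) and was not set apart, since TT replicate 4 had 246. On the evening list CHE, a TCP factor that binds the CCA1 promoter, went the other way with 1811, 1597 and 1818 against 2059 to 3691 (median 2822), a difference of -0.69 (SE 0.16) with no overlap. The remaining morning genes had differences from -0.50 for LNK2 to 0.43 for RVE1, the only one above 0.

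**Figure D2:**
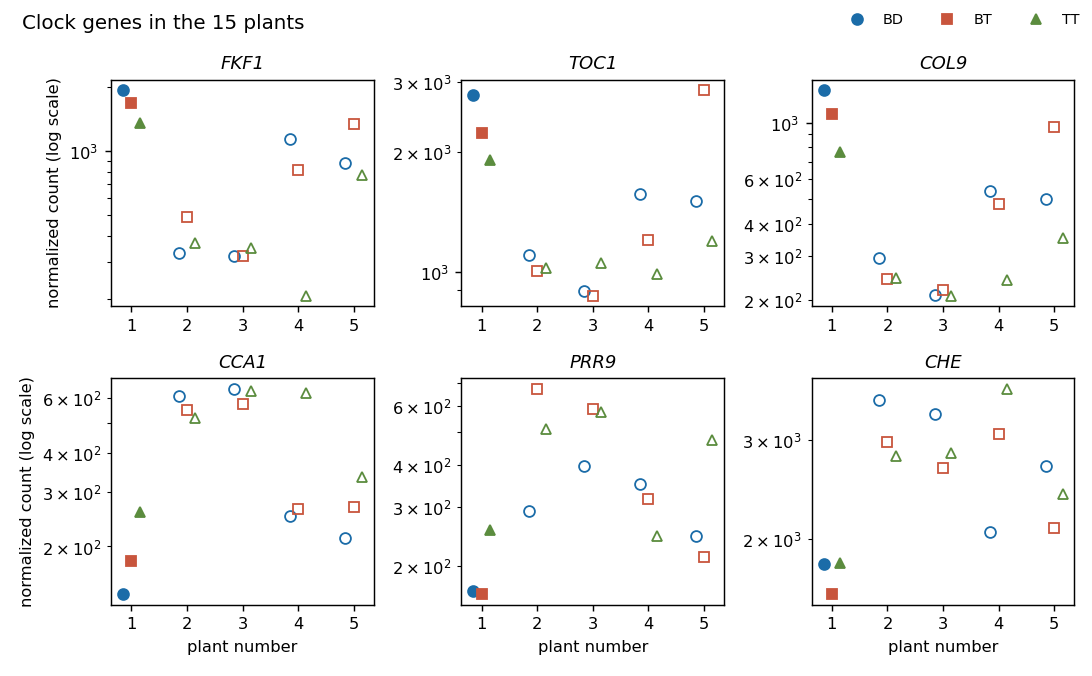
Normalized counts (log scale) of 6 clock genes against the number of the plant, with 1 symbol per plant, filled for plant 1, for BD, BT and TT. FKF1, TOC1 and COL9 were highest in plant 1 of BD and TT and lowest in plant 3 of BD and BT, and CCA1 and CHE had plant 1 as the lowest of its condition.

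Genes around the clock with the largest differences were of the same kind. COL9, a CONSTANS-like factor that delays flowering, had 1343, 1081 and 764 normalized counts in plant 1 of BD, BT and TT against 208 to 965 (median 269), a difference of 1.64 (SE 0.37). AT1G07050, another protein with the CCT motif that CONSTANS carries, had 2381, 1884 and 1574 against 351 to 1707 (median 537), a difference of 1.5 (SE 0.42). Both were set apart, though the highest BT or BD plant among the others stood above the TT plant numbered 1. RVE2, a MYB factor of the CCA1 family that was chosen here after its values were seen, had 327, 315 and 304 against 77.5 to 278 (median 141) and did not overlap. The 8 output genes of the clock were mixed: 4 were higher and 3 lower in plant 1 in all 3 conditions, beside 21.6% and 22.9% of all genes. Their differences ran from -1.44 to 1.94, 0 were set apart and the median was 0.30, or 0.17 without BD plant 1. GRP7, a clock-controlled RNA-binding protein, had a difference of 0.84, CO, the day-length factor of flowering, 1.2, and CDF1, a repressor of CO that FKF1 marks for degradation, -0.87.

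Promoter windows were read because the clock acts through short elements there, the evening element AAATATCT and, for factors of light and of the clock, the G-box CACGTG. Both were searched on both strands from 250 bases before to 50 after the annotated start of 21282 genes. The evening element occurred in 5.95% of all windows, 6.99% of the genes set apart with plant 1 higher and 6.28% of those lower, and in 3 of the 12 genes with the largest positive and 2 of the 12 with the largest negative difference. The G-box occurred in 8.62% of all windows, 6.53% of the higher and 14.1% of the lower genes, and the related ABRE core ACGTGG or ACGTGT, which overlaps a G-box where both share ACGTG, in 19.9%, 16.6% and 27.9%. The W-box TTGACC or TTGACT was in 32.5%, 29.6% and 29.2%, and the rapid stress element CGCGTT in 3.70%, 2.1% and 4.11%. A match is a description of letters and not a site. The 3 windows with the evening element among the 12 largest positive differences, and that of CCA1 with its G-box, are printed as the 250 bases before the annotated start, 5′ to 3′ on the strand of the gene, from the RefSeq genome TAIR10.1, with the element in capitals on either strand.
FKF1, chromosome 1, 25508389 to 25508638, plus strand: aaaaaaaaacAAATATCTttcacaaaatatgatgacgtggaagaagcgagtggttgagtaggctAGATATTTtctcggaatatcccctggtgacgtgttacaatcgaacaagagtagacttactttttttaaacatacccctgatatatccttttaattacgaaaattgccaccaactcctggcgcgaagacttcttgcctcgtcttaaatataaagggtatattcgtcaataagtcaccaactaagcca
EARLI1, chromosome 4, 7406995 to 7407244, minus strand: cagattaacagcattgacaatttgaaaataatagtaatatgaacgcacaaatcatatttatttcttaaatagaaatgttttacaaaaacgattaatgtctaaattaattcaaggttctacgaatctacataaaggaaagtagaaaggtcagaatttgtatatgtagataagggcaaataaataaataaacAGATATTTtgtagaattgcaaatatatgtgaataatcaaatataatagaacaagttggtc
AZI1, chromosome 4, 7401952 to 7402201, minus strand: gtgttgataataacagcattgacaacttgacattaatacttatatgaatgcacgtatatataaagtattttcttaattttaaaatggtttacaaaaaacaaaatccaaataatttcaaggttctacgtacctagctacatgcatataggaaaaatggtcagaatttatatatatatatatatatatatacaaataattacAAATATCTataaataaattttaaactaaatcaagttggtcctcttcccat
CCA1, chromosome 2, 19245341 to 19245590, plus strand: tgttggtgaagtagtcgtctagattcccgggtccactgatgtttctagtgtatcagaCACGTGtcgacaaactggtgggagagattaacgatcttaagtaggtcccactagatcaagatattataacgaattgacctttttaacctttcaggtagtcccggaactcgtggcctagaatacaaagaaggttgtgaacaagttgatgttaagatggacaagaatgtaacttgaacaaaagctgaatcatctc
FKF1 carried the element 2 times, beginning 240 and 186 bases before its start, and the tandem neighbours EARLI1 and AZI1 once each, 60 and 50 bases before theirs.

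Genes of the shoot tip and of floral development were lower in the plants numbered 1. AP1, the MADS factor that gives a primordium floral identity, had 1.64, 0 and 3.56 normalized counts in plant 1 of BD, BT and TT and 10.8 to 33.5 (median 19.9) in the other 12 plants, a difference of -3.13 (SE 0.37). The groups did not overlap, at counts of no more than 33.5. In these bulk samples of whole shoots, fewer cells of a type and less RNA per cell cannot be told apart. SPL4, a factor of the age pathway that promotes the floral transition, had 29.5, 35 and 20.4 against 40.3 to 109 (median 73.2), a difference of -1.31 (SE 0.25) with no overlap. FUL, a MADS factor of the inflorescence, had 60.6, 24 and 42.7 against 33.4 to 218 (median 97.1) and was the lowest in plant 1 of each condition, with BT replicate 2 at 33.4.

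AP1 was named after its values were seen, and so were a further 3 genes of this kind. CYP706A3, a flower-expressed cytochrome P450 that oxidises terpenes, had 8.19, 4 and 4.44 normalized counts against 22.4 to 67.9 (median 37.6), a difference of -2.63 (SE 0.32). CYP78A5, a P450 of organ growth made at the margin of the meristem, had 13.1, 0 and 23.1 against 35.1 to 89.9 (median 46.6). REM1, a B3-domain factor of reproductive meristems, had 2.46, 1 and 3.56 against 7.56 to 19.1 (median 13.3). None of the 3 overlapped, although REM1 had low counts in every plant. AT1G72430, a SAUR-like auxin-responsive protein on distal chromosome 1 that was likewise chosen after its values were seen, had 1237, 1028 and 1445 against 1888 to 3579 (median 2625), with no overlap. FTM1, a desaturase whose name refers to the floral transition at the meristem and which was also chosen after its values were seen, had 23.8, 29 and 34.7 against 31.8 to 155 (median 68.6), with BD replicate 2 just below TT plant 1.

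Of the 12 measured flowering time genes 7 were lower in plant 1 in all 3 conditions and 0 higher, beside 22.9% and 21.6% of all genes, 3 were set apart lower, beside 2.15%, and the median difference was -0.38. The 6 floral organ factors, used as markers of flower tissue, had a median of -0.85, with -1.16, -0.92 and -0.45 in plant 1 of BD, BT and TT and -0.50 to 0.37 in the others. Their levels were low, from SEP2 with 1.25 to 19.8 (median 10.3) counts in the other plants to SEP3 with up to 288, and AG, the factor of stamens and carpels, had a difference of 0.02. AP3, the petal and stamen factor, was set apart with 6.55, 7 and 6.22 against 7.49 to 22 (median 15.7). STM, which maintains the shoot meristem, was set apart too, with 4.1, 7 and 4.44 against 5.09 to 17.1 (median 12.1). SOC1, the integrator of flowering signals, had -0.46 and was not set apart, SVP, a repressor of flowering, had -0.17, and FT, the mobile signal of leaves, had 0, 3 and 3.56 counts in the plants numbered 1 and was not set apart.

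**Figure D3:**
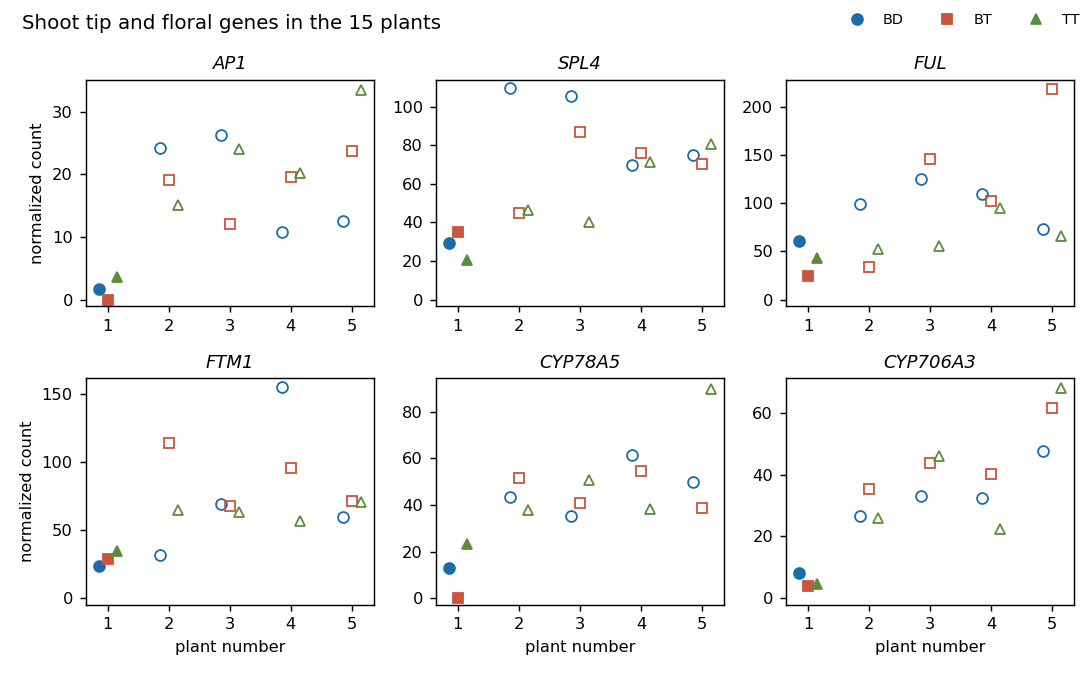
Normalized counts of 6 shoot tip and floral genes against the number of the plant (linear axes), with 1 symbol per plant, filled for plant 1. Plant 1 was the lowest of the 5 plants of its condition for all 6 genes, and AP1 had 1.64, 0 and 3.56 counts there.

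Copper and zinc superoxide dismutases and their partners were lower. These enzymes turn superoxide to hydrogen peroxide, catalase breaks the peroxide down, and CSD1, CSD2 and CCS are known targets of the copper-responsive miR398. CSD2, the plastid enzyme, had 3079, 1738 and 2559 normalized counts in plant 1 of BD, BT and TT against 4316 to 15375 (median 7972), a difference of -1.73 (SE 0.41). CSD1, the cytosolic enzyme, had 1909.8, 1696 and 1469 against 2519 to 6433 (median 3985), a difference of -1.27 (SE 0.22). CCS, the chaperone that loads both with copper, had 778, 576 and 603 against 957 to 2969.7 (median 1420.5), a difference of -1.25 (SE 0.33). In none of these 3 genes did a plant of the other 12 come down to the highest plant numbered 1. CAT2, the catalase of photorespiration, named after its values were seen, had 6472, 7177 and 10799 against 9882 to 19903 (median 14919.6), and BD replicate 5 stood below TT plant 1. Of the 13 genes listed for superoxide, catalase and copper these 4 were set apart lower, beside 2.15% of all genes. In that list 0 were set apart higher, beside 2.02%, and the median was -0.07. The rest had differences between -0.22 for CSD3 and 0.27 for FSD2, and FSD1, the iron enzyme that replaces CSD2 when copper is short, had 0.01.

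**Figure D4:**
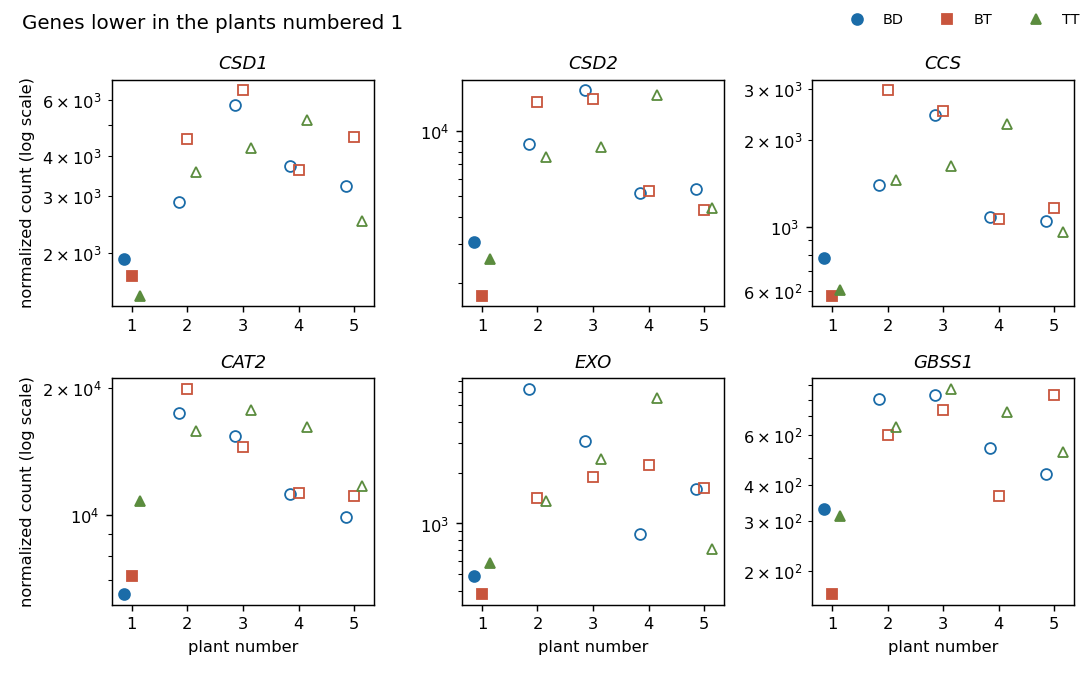
Normalized counts (log scale) of 6 genes lower in the plants numbered 1, against the number of the plant, with 1 symbol per plant, filled for plant 1. For CSD1, CSD2, CCS, EXO and GBSS1 the 3 filled symbols lay below all 12 open ones, and for CAT2 BD replicate 5 lay below TT plant 1.

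Nuclear photosynthesis genes were lower as a whole group and by less. All 37 measured photosystem and antenna genes and all 15 Calvin cycle genes had a lower level in plant 1 than the mean of the others in each of the 3 conditions, beside 22.9% of all genes, with median differences of -0.42 and -0.35. Only 1 gene of each list was set apart, lower, which is 2.7% and 6.67% beside 2.15% of all genes. LHB1B1, an antenna protein of photosystem II, had 41568, 47942 and 41458 normalized counts against 48889 to 99232 (median 74108), a difference of -0.73 (SE 0.24), and RPE, the epimerase of the Calvin cycle, had 14805, 14512 and 16639.6 against 16493 to 21627 (median 19971). Differences in the photosystem list ran from -0.81 for LHCB2.3 to -0.26 for PSAF and PSBX. BT replicate 5 was lower than any plant numbered 1, with a list median of -0.90, and BD replicate 4 had -0.46, against -0.54, -0.29 and -0.45 in plant 1 of BD, BT and TT. These 2 plants lay below or near plant 1 of their condition, so leaving them out raises such counts by construction. They were left out after their values were seen. All 37 photosystem genes and 11 of 15 Calvin cycle genes were then set apart lower, beside 6.57% of all genes. The LHCB1 and LHCB2 copies are near-identical and may share reads, so the split between them is uncertain. Starch synthesis had 2 of 21 genes set apart lower, beside 2.15% of all genes. GBSS1, the granule-bound synthase that makes amylose, had 331, 165 and 311 against 366 to 877 (median 684), a difference of -1.31 (SE 0.25), and ADG1, the small subunit of ADP-glucose pyrophosphorylase, had -0.32.

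Pentatricopeptide repeat proteins bind and process the transcripts of plastids and mitochondria. Together with the tetratricopeptide-like proteins, whose annotation they share, they numbered 511 genes, and 59 of them (11.5%) were set apart with plant 1 higher, beside 2.02% of all genes, and 5 (0.978%) with plant 1 lower. This family was added after its members were seen among the genes set apart. Its median difference was 0.20, its levels were higher in plant 1 in all 3 conditions for 265 genes, beside 21.6% of all genes, and the family median was 0.26, 0.08 and 0.26 in plant 1 of BD, BT and TT against -0.23 to 0.15 in the others. The differences of members were small, 0.81 for AT5G46460, 0.62 for AT1G53330 and 0.28 for CRR2, which processes a plastid transcript. The largest, 2.73 for AT1G31920, rests on plants listed at 0: plant 1 had 86.8, 110.1 and 145 counts, and BD replicates 2 and 3, BT replicate 5 and TT replicate 4 had 0.

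Transcript length moved with the contrast. Among genes whose mean normalized count reached 50, those with a longest annotated transcript under 1000 bases had a median difference of -0.10 and 0.821% were set apart with plant 1 higher, while those over 3000 bases had 0.15 and 4.38%. The shares with plant 1 lower were 2.63% and 0.476%. Repeat protein genes were long, with a median of 2211 bases. Among transcripts of 2000 to 3000 bases 15% of 213 repeat protein genes were set apart higher, against 3.54% of all genes of that length. The family median, less the median of all genes of the same length and level class, was 0.12. The same subtraction left -0.30 for the photosystem and antenna genes, which are short, 0.47 for the evening clock, -0.48 for the morning clock and -0.31 for flowering time. The gap between long and short transcripts was 0.47, 0.23 and 0.02 in plant 1 of BD, BT and TT and -0.41 to 0.44 in the others, so the plants overlapped in it, and 3 of the other TT plants had larger gaps than TT plant 1. The part of transcript length in these results was not tested.

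**Figure D5:**
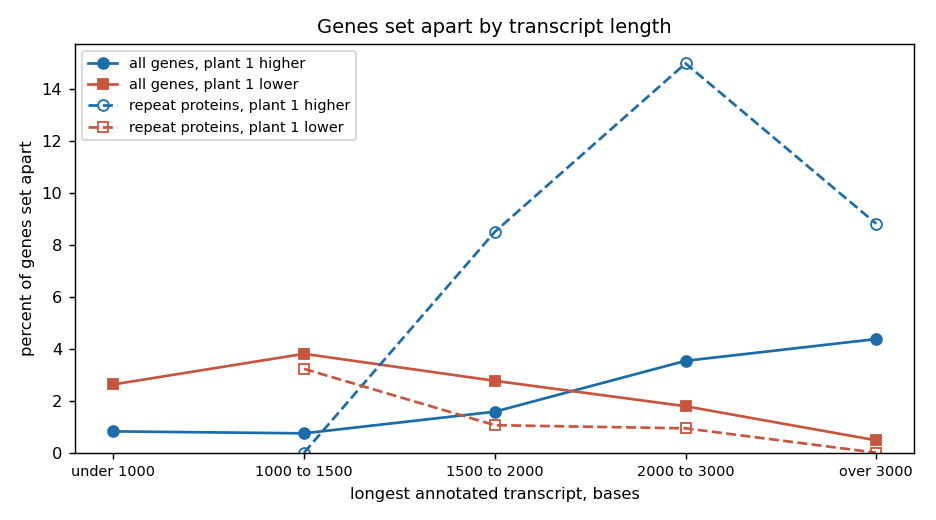
Percent of genes set apart, with plant 1 higher (circles) or lower (squares), by the length of the longest annotated transcript, for all genes whose mean count reached 50 (solid) and for repeat protein genes in classes of at least 20 genes (dashed). The share with plant 1 higher was 0.821% in the shortest and 4.38% in the longest class of all genes, and 15% for repeat proteins of 2000 to 3000 bases.

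Transcripts of the organelles themselves were read from poly(A)-selected RNA. The 79 mitochondrial genes had a median difference of 0.36 and 59 positive differences, beside 50.8% of all genes, with medians of 0.09, 0.45 and 0.59 in plant 1 of BD, BT and TT and -0.22 to 0.33 in the others. Of them 2 were set apart higher, 2.53%, which is near the 2.02% of all genes. They took 0.00619%, 0.00527% and 0.0077% of the reads of the plants numbered 1 and 0.00364% to 0.00606% of the others. The 88 plastid genes had a median of 0.28, 2 of them (2.27%) set apart higher, and the other plants ranged from -0.77 to 0.63, around all 3 plants numbered 1. Without BD replicate 4 and BT replicates 2, 3 and 5 the plastid median was 0.00 and the mitochondrial 0.29.

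Among the largest negative differences were genes of cell walls and expansion growth. CSLA01, a cellulose synthase-like protein of the mannan synthase family, had 6.55, 15 and 29.3 normalized counts in plant 1 of BD, BT and TT and 19.2 to 566 (median 191) in the others, a difference of -3.27 (SE 0.78), and BD replicate 4 lay within the range of the plants numbered 1. EXO, an extracellular protein of growth promoted by brassinosteroids, had 487, 380.3 and 584 against 711 to 6271 (median 1762), a difference of -2.04 (SE 0.53) with no overlap. EXO and its paralogs EXL5 and EXL3 were 3 set apart lower among 7 EXORDIUM genes, beside 2.15% of all genes. The family was added after values were seen, and its median was -1.06. EXL5 had 860.3, 694 and 994 against 921 to 4503 (median 2095), and EXL3 1426, 1387 and 1837 against 1667 to 5858 (median 2864), each with BD replicate 4 close above BD plant 1. A pair of paralogs with the uncharacterised domain DUF1005 followed. AT1G50040 had 93.4, 94.1 and 129 against 134 to 2297 (median 526) and AT3G19680 499, 512 and 682 against 772 to 6581 (median 2476), differences of -2.45 (SE 0.70) and -2.19 (SE 0.51) with no overlap. In all of these genes BD replicate 2 was the highest plant.

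The 12 largest negative differences held further genes of unlike kinds. AT4G27280, a calcium-binding EF-hand protein, had 503, 568 and 342 against 451 to 2978 (median 1923), where TT replicate 5 stood below BD and BT plants 1. AT1G77640, a protein of the integrase-type DNA-binding fold, had 6.55, 10 and 8.89 against 11.5 to 323 (median 54.7), and TMAC2, of the family that tempers abscisic acid signalling, 27.9, 35 and 45.3 against 38.4 to 426 (median 105). A further 4 genes completed the 12 largest, AT5G25240, AT3G50800, AT1G72240 and AT4G19430, with differences of -1.6, -1.6, -1.58 and -1.46. The next gene below, outside the 12, was AT2G44500 at -1.32, and 394 genes were eligible. AT1G72240 and AT1G77640 lie on distal chromosome 1, where BD replicate 4 and BT replicates 3 and 5 stood high. Those plants had the highest counts of AT1G72240, 282, 326 and 269. They had 33.8, 60.6 and 60.5 of AT1G77640, where BD replicate 2 was the highest. Of 38 touch and rapid stress genes 24 were lower in plant 1 in all 3 conditions, beside 22.9% of all genes, and 0 were set apart, with a median of -0.48, and the others ranged from -1.54 in TT replicate 5 to 0.85 in TT replicate 4. Xyloglucan endotransglucosylases, which loosen walls, had a median of -0.34 with 13 of 20 lower in all 3 conditions (22.9% of all genes) and 0 set apart, whereas expansins, which do so by another route, had 0.26 with 11 of 20 higher in all 3 (21.6% of all genes) and EXPB3 set apart at 0.56.

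Lipid transfer proteins, with 1 transcript that runs against one of them, made up 6 of the 12 largest positive differences. These small secreted proteins carry lipids to the cuticle or act in systemic defence. LTP4 had 782, 1371 and 1483 normalized counts in plant 1 of BD, BT and TT and 5.72 to 565 (median 69.7) in the others, a difference of 3.88 (SE 1.24), and its neighbour LTP3 had 839.8, 1461 and 2193 against 46.8 to 787 (median 272), a difference of 2.57 (SE 0.79). Neither overlapped, but BT replicates 2 and 4 had 5.72 and 5.85 counts of LTP4 while BT replicate 3 had 565. EARLI1 had 1744, 605 and 701 against 98.1 to 514 (median 197), a difference of 2.14 (SE 0.41), and AZI1, a protein of systemic acquired resistance, 374, 614 and 715 against 82.3 to 283 (median 188), a difference of 1.65 (SE 0.31). Both were without overlap. With AT4G12490 and AT4G12495 they lie in 1 cluster (chromosome 4, 7401087 to 7401951 for AZI1, chromosome 4, 7406065 to 7406994 for EARLI1, chromosome 4, 7409621 to 7410406 for AT4G12490 and chromosome 4, 7410116 to 7410397 for AT4G12495, TAIR10.1). AT4G12495 runs against AT4G12490 on the other strand, and the authors counted with the unstranded library type of Salmon. The counts of AT4G12490 (470.3, 151 and 260.5) and AT4G12495 (249, 114 and 129.8) in the plants numbered 1 therefore cannot be told apart. Reads with up to 50 places were kept, so that the paralogs may share reads. Among the 62 genes annotated as lipid transfer proteins, which leave out AZI1, 4 were set apart higher and 1 lower, beside 2.02% and 2.15% of all genes. The median of the 62 was -0.03. The remaining members of the 12 were AT2G43590, a chitinase, at 1.56, with BD plant 1 at 622 and BD replicate 4 at 380.2 counts, and AT2G23910, a Rossmann-fold protein, at 1.34. EXT4, an extensin, was next at 1.3, among 358 eligible genes.

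Of the ethylene genes EBF2, ERS2 and ERS1 were set apart higher. Ethylene receptors keep the pathway shut in the absence of the hormone, and the F-box proteins EBF1 and EBF2 degrade EIN3. EBF2 had 986, 1096 and 987 normalized counts in plant 1 of BD, BT and TT against 530.1 to 878 (median 602), a difference of 0.68 (SE 0.14). ERS2, a receptor, had 103, 76.1 and 73.8 against 35.7 to 67.2 (median 53.2), a difference of 0.71 (SE 0.18). ERS1, another receptor, had 946, 812 and 813 against 585 to 721 (median 666), a difference of 0.37 (SE 0.08). In these 3 genes the groups did not overlap. Over 16 listed ethylene genes 10 were higher in plant 1 in all 3 conditions, beside 21.6% of all genes, 3 were set apart higher and 0 lower, beside 2.02% and 2.15%, and the median was 0.37. EBF1, which was not set apart, had a difference of 0.38, the receptor ETR2 0.66, CTR1, the kinase below the receptors, 0.34, EIL1, the relative of EIN3, 0.45, and EIN3 itself 0.00. The synthesis enzymes ACO1 and EFE had -0.26 and -0.23. ACS6, an ethylene synthesis enzyme induced by stress, had 490.0, 695 and 445 against 311 to 2848 (median 1856) and TT replicate 5 was the lowest plant of all.

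Single genes of the phenylpropanoid and flavonol pathway were higher. MYB111, an activator of flavonol synthesis, had 226, 212 and 260.5 normalized counts against 82.3 to 179 (median 119), a difference of 0.98 (SE 0.22) with no overlap. 4CL3, the ligase that feeds flavonoids, had 399, 433 and 597 against 229 to 439.8 (median 330.0). BD replicate 5 had 398.4 counts of it, just below BD plant 1. PAL1, the entry enzyme, chosen after its values were seen, had 3529.6, 2909 and 3863 against 1451 to 2868 (median 2105), and its paralog PAL4 had a difference of 0.62. The flavonoid list as a whole had a median of 0.04, and 2 of 19 genes were set apart higher, beside 2.02% of all genes. TT4, the chalcone synthase, had 0.63 and F3H 0.57, while PAP1, the anthocyanin activator, had -0.63 and DFR, an anthocyanin enzyme, -0.22. A pair of cytokinin response factors picked after their values were seen, CRF4 and CRF5, had differences of 0.80 (SE 0.22) and 0.84 (SE 0.25), and both were set apart.

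Mineral and hormone lists held single genes that were set apart. MGD2 and MGD3, which make galactolipids when phosphate is short, had 39.3, 31 and 33.8 against 50.9 to 129.6 (median 64.9) and 50, 40 and 40 against 51.6 to 141 (median 83.8), both without overlap, in a phosphate starvation list with a median of -0.23 and 8 of 15 genes lower in all 3 conditions, beside 22.9% of all genes. That median was -0.07 without BT plant 1 and -0.48 without TT plant 1. FER4, a mitochondrial and plastid ferritin that stores iron, had 1385, 1132 and 1252 against 1449 to 2801 (median 1953), with no overlap, and an iron list median of 0.12. The auxin-conjugating enzymes GH3.5 and GH3.3 had -1.0 and -0.61, where BD replicate 4 had 154 and 260.4 counts, the highest of all plants. The auxin response list had a median of -0.36, and 0 of its 14 genes were higher and 8 lower in all 3 conditions, beside 21.6% and 22.9% of all genes. By plant, its median was -0.30, -0.19 and -0.49 in plant 1 of BD, BT and TT. BD replicate 4 at -0.90 and BT replicate 5 at -0.74 were lower than any plant numbered 1. ROF2, a heat-induced co-chaperone, had -0.65 in a heat shock list with a median near 0, MCM5, a subunit of the replicative helicase, 0.27 in a cell cycle list with 0.08, and FMA, the factor of guard cell fate, 0.21.

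In 8 further lists, as among the clock outputs, no gene was set apart, beside 4.17% of all genes in either direction. Their medians were -0.23 for salicylic acid defence, -0.16 for glucosinolates, -0.13 for sugar starvation, -0.08 for nitrate, -0.07 for abscisic acid, cold and drought, -0.06 for the unfolded protein response, -0.05 for senescence and autophagy and 0.03 for light and shade. Without BD replicate 4 and BT replicate 5 the medians for salicylic acid, the unfolded protein response and senescence were 0.09, 0.19 and 0.10, and that for light and shade -0.06, so these turned in sign. On TPM values the medians for glucosinolates, sugar starvation, nitrate, abscisic acid, the unfolded protein response and senescence turned positive, as did those for starch and for copper and superoxide. The salicylic acid list had -0.01, -0.37 and -0.36 in plant 1 of BD, BT and TT and -1.29 to 1.82 in the others. Plant 1 lay inside the range of its sisters in each condition, but the TT sisters ranged only from -0.46 to 0.41. Of 31 jasmonate genes only PDF1.2, a defensin with a mean count of 5.63, was set apart. Ribosomal proteins had a median of 0.03 over 323 genes, proteasome subunits -0.03, tubulins 0.01 and WRKY factors 0.00.

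The deviations of plants were also compared by their numbers. Each plant's rlog values were set against the mean of its condition over 16252 genes whose mean normalized count reached 50, and the deviations of plants from different conditions were correlated across genes, which are not independent of each other and share the library and its depth. Deviations within a condition sum to 0, which lowers r between unlike numbers when like numbers correlate. The 3 pairs of plants numbered 1 had r = 0.59, 0.41 and 0.49, and the 12 pairs sharing another number -0.69 to 0.50, with BD and BT plants 2 at 0.50, BD and BT plants 3 at 0.49 and BD and TT plants 5 at 0.47. Without BD replicate 4 and BT replicate 5 the 3 pairs had 0.45 to 0.68, the 8 pairs sharing another number had a median of 0.28 with a range from -0.01 to 0.61, the 20 pairs of a plant numbered 1 with another number a median of -0.10, and the 25 pairs of different other numbers a median of 0.02 with a range from -0.49 to 0.53. On the second principal component the plants numbered 1 lay at -14.7, -8.52 and -19.0, and TT replicate 5 lay there too, at -18.5.

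The genes set apart were not spread evenly over the chromosomes. On chromosome 4 it was 0.896% with plant 1 higher and 2.50% lower, on chromosome 5 1.27% and 2.56%, on chromosome 3 2.74% and 1.26%, and on distal chromosome 1 from AT1G70250 on, with 977 genes, 0.409% and 6.24%. In these regions single plants among the other 12 stood high, with chromosome medians of 0.29 on chromosome 4 in BT replicate 2 and 0.26 on chromosome 5 in BT replicate 5, and 0.43, 0.22 and 0.15 on distal chromosome 1 in BD replicate 4 and BT replicates 3 and 5. Without these 4 plants, which leaves fewer plants to be set apart from, 7.45% of all genes were set apart with plant 1 higher and 9.03% lower. Chromosome 4 then had 7.73% and 10.0%, chromosome 5 7.17% and 8.17%, chromosome 3 7.38% and 8.18%, and distal chromosome 1 8.29% and 11.6%.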

How the data were processed

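RNA-seq of aerial tissue was measured in 60 samples, 4 technical replicates of each of 15 plants. Per the submitters' notes and the methods, the authors trimmed reads with Trimmomatic 0.38, aligned them with STAR 2.6.0c to TAIR10, keeping reads with up to 50 places, and estimated abundance with Salmon 0.11.3. The deposited normalized counts (a signal, counts divided by DESeq2 1.22 size factors), rlog values (a log2 scale) and TPM values hold 1 column per plant. All normalized counts gave whole reads within 0.001 after multiplication by the size factor. Plants 1 were compared with plants 2 to 5 by a linear model (limma 3.58.1, R 4.3.3) with condition as a term, fitted to the log2 of the normalized count plus 1, and edgeR 4.0.16 and DESeq2 1.42.0 were run on the recovered reads. The columns of a plant name the group but combine 4 samples, and the labels call them biological replicates without saying how their number was given. The fits were tested on simulated data. The genes named by rule had a mean of at least 50 and were set apart, the 12 largest in each direction and up to 3 of each list, with EIN3 added. AP1, TOC1, PRR5, PRR9, COR27, AP3, STM, SEP2, PAL4 and ACS6 were chosen after their values were seen, as were those marked so above. Some other members of lists and families were given with a difference alone and fall outside this rule. The members and lists were chosen with earlier results of these data known. Of 513 listed genes 488 were in the tables, and 21283 identifiers matched TAIR10.1.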

Additional observations from a re-analysis of the deposited data

Results flagged for a closer look

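In 36 of the groups of 5 plants tested, 1 plant lay far from the other 4 by Dixon's criterion, and 23 of the 36 were plants numbered 1, among 399 groups examined. Chance alone marks about 1 group in 20, and the genes were chosen for their contrast, so the number is a description. Among the normalized counts of plants numbered 1 these were LTP4 in TT (1483), LTP3 in TT (2193), EARLI1 in BD (1744) and BT (605.4), AZI1 in BT (614.4) and TT (714.7), COL9 in TT (763.6) and AT2G23910 in TT (270.2). The ethylene genes were ERS2 in BD (103.2), EBF2 in BD (986.5) and ERS1 in BD (946.3) and TT (813.4). The others were RVE2 in BD (326.9) and TT (304), PAL1 in BD (3530), TOC1 in TT (1909), COR27 in TT (258.7) and CRF5 in BT (75.05), all high, and AP3 (7.005) and CYP78A5 (0) in BT, both low.

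Plants with other numbers stood apart as well. TT replicate 4 was high in AT1G50040 (2161), AT5G25240 (674), TMAC2 (425.5) and AT2G44500 (1782), BD replicate 4 in GH3.5 (154.4) and GH3.3 (260.4), and BT replicate 5 was at 0 in AT1G31920. Among medians of gene groups, as log2 differences from the mean of plants 2 to 5 of the condition, TT plant 1 was high in the proteasome (0.1237) and BT plant 1 low in the floral organ factors (-0.9226). Low medians were found for nitrate (-0.4719) and ERF/AP2 factors (-0.6983) in TT replicate 5, and for guard cell markers (-0.2261) and extensins (-0.3057) in BD replicate 4. The single root marker in the tables, CASP1, was low in BD replicate 2 (-1.76) and high in TT replicate 3 (0.3912). TT plant 1 had the largest mitochondrial share of reads, 0.007699%.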

How the results depend on the processing

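The limma fit called 0 genes after Benjamini-Yekutieli adjustment and 4 after Benjamini-Hochberg adjustment. With the 2 adjustments in that order, array weights gave 127 and 2535, the fit without a condition term 2 and 9, and DESeq2 41 and 130. Without BD replicate 4 and BT replicate 5 they gave 0 and 365. Leaving out each plant gave 0 to 0 after Benjamini-Yekutieli adjustment. The 895 genes set apart became 1421 on TPM values (1262 higher and 159 lower), where the median of all genes shifted by 0.17, and 930 after TPM was centred, of which 808 were shared. They became 277 without regard to condition, 2193 in BD and BT only, 2528 in BD and TT only, 1871 in BT and TT only, 2410 without BD replicate 4 and BT replicate 5, 3535 without BD replicate 4 and BT replicates 2, 3 and 5, and 923 to 2528 when 1 plant was left out, above 1.5 times the count without BD replicate 1 (1871), BT replicate 1 (2528), BT replicate 5 (1447) or TT replicate 1 (2193). Leaving out a plant leaves fewer plants to lie beyond, and leaving out a plant numbered 1 leaves 2 conditions, so these counts grow by construction. Of 2309 alternative values of named genes 2149 moved by less than the spread between conditions and 9 changed sign, and of 898 values of list medians 841 and 66 did. AT2G43590 ranged from 0.83 without BD replicate 1 to 2.12 without TT replicate 1. No paired analysis was possible because the replicate number is itself what was compared. Counts are limited by 1 plant of number 1 in each condition. The centred TPM values and the settings without several plants were chosen after seeing the data.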

Other observations

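Some gene families outside the lists above were counted as well, as descriptions beside the 2.02% of all genes set apart with plant 1 higher and 2.15% lower. Calmodulin-like proteins, which bind calcium, had 23 of 45 genes lower in plant 1 in all 3 conditions and 3 higher, beside 22.9% and 21.6% of all genes, 2 set apart lower, and a median difference of -0.18 on the log2 scale. Core and linker histones had 37 of 47 genes with a positive difference, beside 50.8% of all genes, and a median of 0.11, but 0 were set apart, and the medians in the plants numbered 1 were -0.05, 0.02 and 0.39 in BD, BT and TT. Among 174 cytochrome P450 genes, which include CYP706A3 and CYP78A5, 1 was set apart higher and 5 lower. Among 111 UDP-glycosyltransferases, which attach sugars to small molecules, 4 were set apart higher and 1 lower. AT1G06000, a member of that family chosen after its values were seen, had 1814, 1784 and 2250.0 normalized counts in the plants numbered 1 of BD, BT and TT. The others had 436 to 1781 (median 1190), and BT replicate 5, the highest of them, lay just below BT plant 1. Glutathione S-transferases had 3 of 48 genes set apart lower and peroxidases 2 of 44 higher, with family medians of 0.03 and 0.10.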
